A study of Danio rerio with 12 samples.

Results

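The comparison set zebrafish larvae exposed to 30 mg/L OBS against untreated larvae, and took 6 of the 12 libraries of the series: OBS30 replicates 1, 3 and 4, and control replicates 2, 3 and 4. Tests covered the 28636 genes and loci, of 44667 in the table, that reached 1 TPM in 3 or more of these 6 libraries. TPM is a length-scaled share of the transcripts of a library. OBS, sodium p-perfluorous nonenoxybenzene sulfonate, is a fluorinated surfactant that has come into use in place of perfluorooctane sulfonate (PFOS). It joins a perfluoroalkenyl chain through an ether oxygen to a benzenesulfonate head. The title of the series names tissue damage, oxidative stress and altered immunity as its questions. All groups were wild-type larvae (Danio rerio) sampled 4 days after fertilisation, and poly(A) RNA was sequenced; the labels name no dissected tissue. The OBS30 larvae were kept in 30 mg/L OBS, the OBS20 larvae in 20 mg/L OBS and the PFOS20 larvae in 20 mg/L PFOS, and the control larvae were untreated. Each group had 3 libraries. The labels used here do not give the start of the exposure, a vehicle, the number of larvae pooled or whether replicates came from separate clutches, so p-values reflect only how these samples spread, which may be technical. In RNA of bulk tissue, fewer cells of a type and less RNA per cell cannot be told apart.

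Animal cells meet electrophiles and peroxides through the transcription factor Nrf2. Its repressor Keap1 releases it when reactive cysteines are modified, and Nrf2 then switches on genes for glutathione and thioredoxin chemistry, conjugation and iron storage. Planar aromatic ligands act through a separate sensor, the aryl hydrocarbon receptor, which switches on cytochrome P450 genes of family 1. In a larva of this age the liver, gut and exocrine pancreas have just become functional, and they take up, modify and excrete foreign compounds.

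The libraries held the transcripts of the organs of a larva. Skeletal muscle genes summed to 98020 to 106795 TPM in OBS30 larvae, against 93764 to 98857 TPM in control larvae, lens genes to 19505 to 22543 TPM against 28234 to 29030 TPM, and hepatocyte genes to 8377 to 9691 TPM against 11326 to 13500 TPM. Of 21 lymphoid markers only 6 passed the filter, and 0 of them were called. Ribosomal protein genes took 15.5%, 14.2% and 14.1% of TPM in OBS30 replicates 1, 3 and 4, against 17.1%, 17.7% and 17.0% in control replicates 2, 3 and 4 (exact two-sided permutation test, p = 0.1, the smallest that 3 against 3 libraries allow). The genes of the mitochondrial genome made up 8.62% ± 0.242 of TPM in OBS30 larvae and 7.78% ± 0.474 in control larvae (SD, n = 3 each; exact two-sided permutation test, p = 0.1). OBS30 replicate 1 had 27023 genes and loci at 1 TPM or more, against 28432 and 28318 in the other OBS30 libraries and 27589 to 27708 in the control libraries. The read depth behind the values is unknown.

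Part of the antioxidant, conjugation, stress, inflammatory and hypoxia response genes were higher in OBS30 than in control larvae, and part of the liver, gut, pancreas, lens, photoreceptor and proliferation genes were lower. In all, 2093 genes and loci (7.31% of those tested) were called higher and 1555 (5.43%) lower at an adjusted p below 0.05 in limma. Changes are differences in mean log2(TPM + 1) between the 3 OBS30 and the 3 control libraries, with the standard error of the fit. Of the called genes, 669 were higher and 420 lower by at least 2-fold on this scale. The median change over all genes tested was 0.02. In 34.5% of the genes tested, all 3 libraries of one group lay above all 3 of the other. The 15 highest and 15 lowest changes named below were picked only among called genes separated in this way. For those genes, separate groups follow from the choice and add no evidence, also where a sentence or caption below describes them. The count called higher was 931 to 1947 and the count called lower 618 to 1219 when 1 library was left out, the fewest higher without OBS30 replicate 3 and the fewest lower without control replicate 3. A count of 0 to 2 members of a list in one direction could change by 1 or more when 1 library was left out, and describes these 6 libraries. With the replicate number as a block, 0 genes were called higher and 0 lower. The lost calls, changed counts and largest adjusted p given below leave out that fit. The gene lists were chosen with earlier results of these data known, so their shares are description and got no test. Called members made up 48.1% of the glycolysis and hypoxia list, 47.1% of the aryl hydrocarbon receptor target list and 44.4% of the AP-1 list on the higher side. They made up 63.4% of the ribosomal protein list, 53.4% of the enterocyte list, 52.8% of the hepatocyte list and 50.9% of the lens list on the lower side. The ribosomal protein count, 52, was 2 with median-of-ratios scaling and 9 to 18 without any control library or OBS30 replicates 3 or 4. The lens count, 29, was 14 to 18 in these settings. The AP-1 and aryl hydrocarbon receptor counts also dropped without some of the libraries, as given below. Members of tandem gene copies (gstp1 and gstp2, the hsp70 copies, the sycn, ms4a17a and crygm2d copies) can exchange reads when abundance is estimated, so the value of a single copy is less certain.

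**Figure D1:**
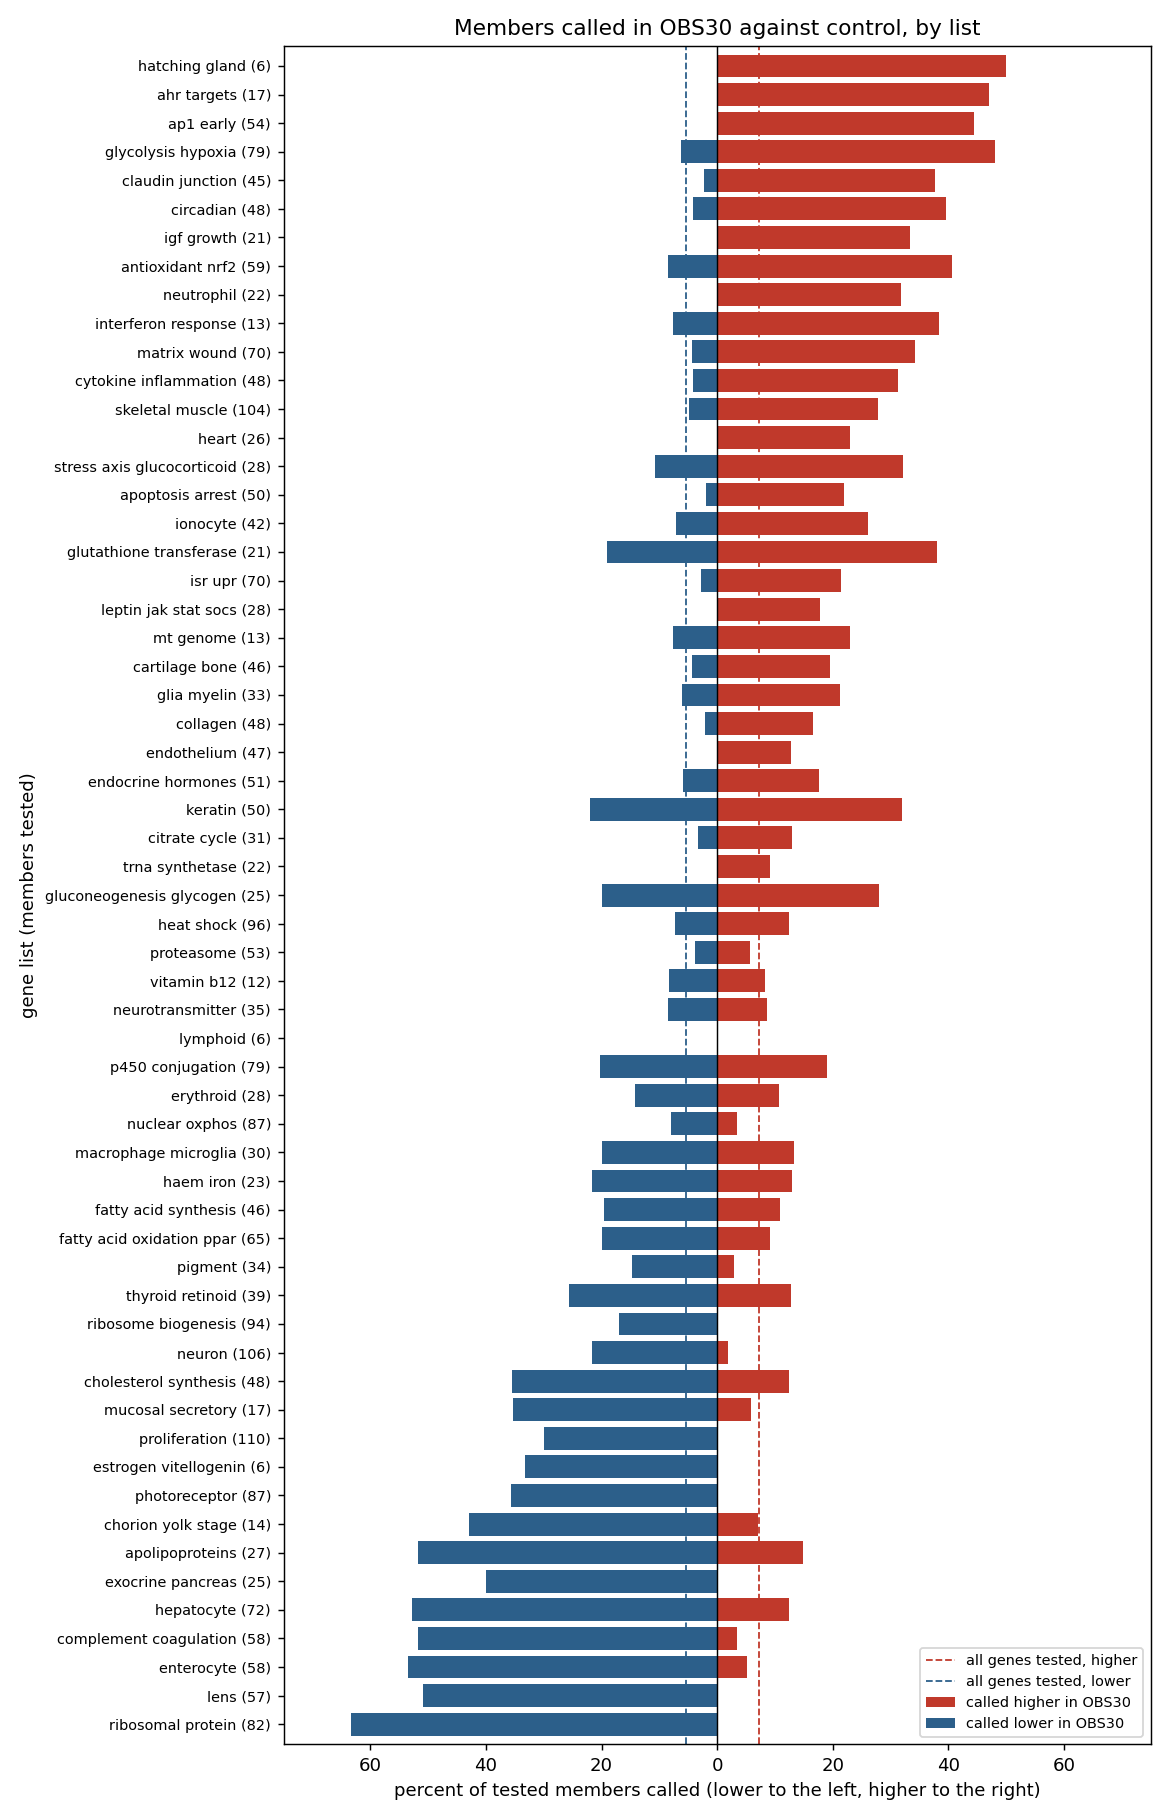
Percent of tested members called higher (bars to the right) and lower (bars to the left) in OBS30 against control larvae for each of 59 gene lists, with the number of members tested in parentheses; the dashed lines mark the shares of all genes tested, 7.31% higher and 5.43% lower. Hatching gland, aryl hydrocarbon receptor and AP-1 lists stand at the top, and enterocyte, lens and ribosomal protein lists at the bottom. The ribosomal protein and lens bars rest on counts that dropped with median-of-ratios scaling or without some of the libraries. The lists were chosen with earlier results of these data known and got no test.

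Antioxidant and Nrf2 target genes rose more often than they fell. In this list 24 rose, 5 fell and 30 were not called among 59 tested of 59 in the table, with a median change of 0.42. The gene of the regulator itself, nfe2l2a, which encodes Nrf2, had 59.1, 57.0 and 58.0 TPM in OBS30 larvae, against 31.9, 33.2 and 34.9 TPM in control larvae, and rose by 0.78 ± 0.07 (adjusted p = 0.0016). The repressor gene keap1a had 14.9, 14.7 and 17.8 TPM in OBS30 larvae, against 7.02, 6.11 and 5.94 TPM in control larvae, and rose by 1.19 ± 0.12 (adjusted p = 0.0026), and its paralogue keap1b rose by 0.94 ± 0.14 (adjusted p = 0.0089). For all 3 of these genes, each OBS30 library lay above each control library. The peroxiredoxin gene prdx1 (ENSDARG00000058734), whose product reduces hydrogen peroxide, had 361, 389 and 354 TPM in OBS30 larvae, against 59.7, 46.6 and 52.5 TPM in control larvae. The groups were far apart and each was tight, and the change was 2.78 ± 0.10 (adjusted p = 1.6e-04). Thioredoxin hands electrons on to peroxiredoxins, and its gene txn had 237, 255 and 270.4 TPM in OBS30 larvae, against 60.2, 78.2 and 60.1 TPM in control larvae, a rise of 1.93 ± 0.12 (adjusted p = 6.0e-04). Glutathione reductase, gsr, which restores reduced glutathione, had 52.0, 47.9 and 56.5 TPM in OBS30 larvae, against 14.4, 16.1 and 13.9 TPM in control larvae, and rose by 1.75 ± 0.10 (adjusted p = 5.1e-04). The autophagy receptor gene sqstm1 had 93.6, 123 and 112 TPM in OBS30 larvae, against 28.8, 31.0 and 28.9 TPM in control larvae, and rose by 1.84 ± 0.11 (adjusted p = 5.6e-04). In each of these genes the lowest OBS30 library stood well above the highest control library.

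Not every antioxidant enzyme moved this way. The superoxide dismutase genes sod1 and sod2 were not called, at -0.10 ± 0.09 (adjusted p = 0.51) and -0.20 ± 0.08 (adjusted p = 0.15). The gene sod1 had 268, 226 and 248 TPM in OBS30 larvae, against 284, 271 and 242 TPM in control larvae, with overlapping groups. The cystine transporter gene slc7a11 was at 0.21 ± 0.16 (adjusted p = 0.46). The first enzyme of glutathione synthesis, gclc, rose by 0.51 ± 0.09 (adjusted p = 0.014) and the quinone reductase gene nqo1 by 0.46 ± 0.08 (adjusted p = 0.019), both small changes. The red cell peroxiredoxin gene prdx2 went the other way, with 318, 289 and 279 TPM in OBS30 larvae, against 490.1, 460.0 and 419.5 TPM in control larvae, and fell by 0.63 ± 0.08 (adjusted p = 0.006). The catalase gene cat fell by 0.52 ± 0.13 (adjusted p = 0.047), and prdx6 by 0.40 ± 0.08 (adjusted p = 0.024). The regulator and enzyme genes nfe2l2a, keap1a, keap1b, txn, gsr, sqstm1, sod1, sod2 and slc7a11 were chosen after their values were seen. The count of antioxidant genes called lower, 5, was 1 to 2 without any control library or OBS30 replicates 3 or 4, 3 with no filter, 2 with median-of-ratios scaling and 2 in the fit of all 12 libraries. The call of gclc was lost without control replicate 3, at an adjusted p of up to 0.059. The call of nqo1 was lost without any control library or OBS30 replicates 3 or 4, at an adjusted p of up to 0.07. The call of cat was lost without any control library or OBS30 replicates 3 or 4, with a pseudocount of 0.1, with no filter or with median-of-ratios scaling, at an adjusted p of up to 0.14. The call of prdx6 was lost without control replicates 2 or 4 or OBS30 replicates 3 or 4, with median-of-ratios scaling or in the fit of all 12 libraries, at an adjusted p of up to 0.081.

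Glutathione transferases couple glutathione to electrophiles for export. Of 21 tested genes of this family 8 rose and 4 fell. The pi class gene gstp1 was among the most abundant transcripts that changed, with 2789.5, 2585 and 2629 TPM in OBS30 larvae, against 533, 503 and 477 TPM in control larvae, a rise of 2.40 ± 0.06 (adjusted p = 1.2e-04). Its neighbour gstp2 had 338, 349 and 359 TPM in OBS30 larvae, against 44.9, 52.8 and 43.8 TPM in control larvae, and rose by 2.86 ± 0.08 (adjusted p = 1.6e-04). In both genes the 3 OBS30 libraries lay close together and far above the 3 control libraries. The rule that picked both required groups that did not overlap. The membrane-bound microsomal transferase gene mgst3b had 699.6, 641 and 705 TPM in OBS30 larvae, against 178, 161 and 160.4 TPM in control larvae, and rose by 2.03 ± 0.07 (adjusted p = 1.6e-04). The mu class genes gstm.1 and gstm.2 fell by 0.67 ± 0.11 (adjusted p = 0.012) and 0.82 ± 0.12 (adjusted p = 0.01), and the zeta class gene gstz1, which acts in tyrosine breakdown, by 0.38 ± 0.09 (adjusted p = 0.041). The count of glutathione transferase genes called lower, 4, was 2 without any control library or OBS30 replicates 3 or 4, 2 with median-of-ratios scaling and 2 in the fit of all 12 libraries. The call of gstz1 was lost without any control library or OBS30 replicates 3 or 4, with median-of-ratios scaling, in the fit of all 12 libraries or in the fit of 11 libraries, at an adjusted p of up to 0.23.

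**Figure D2:**
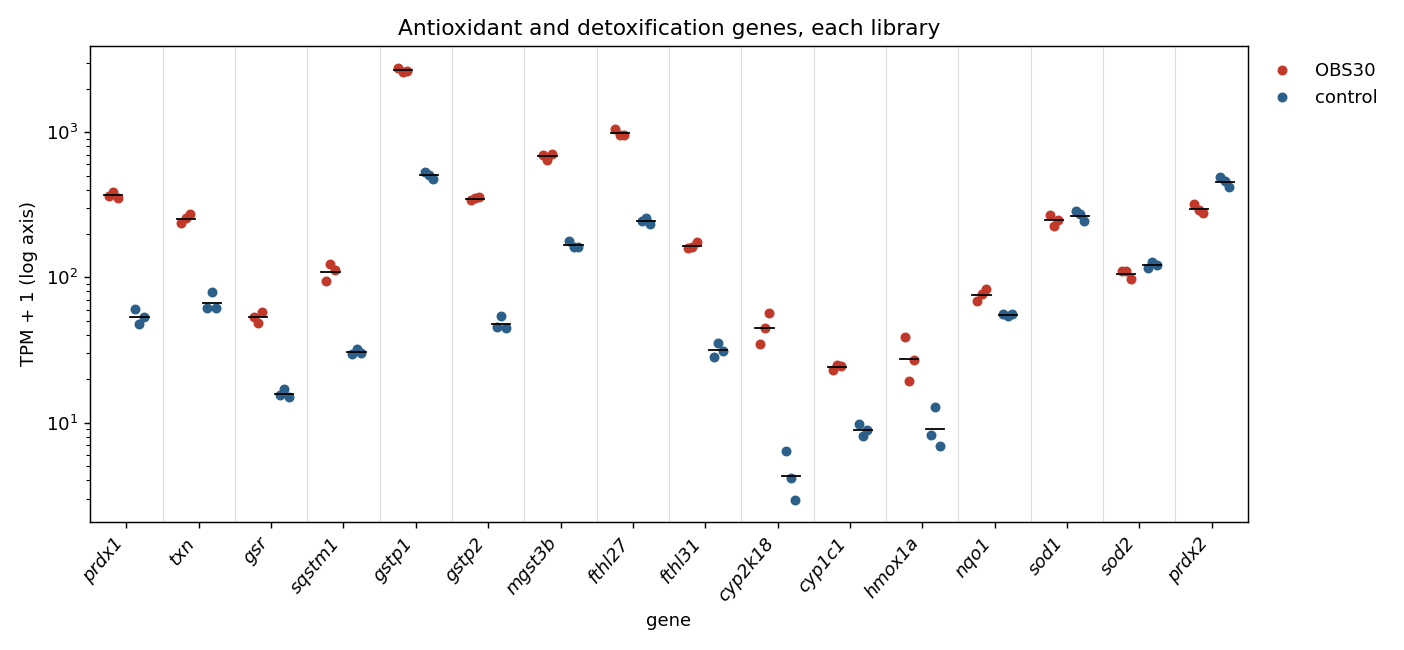
TPM + 1 on a log axis for 16 antioxidant and detoxification genes, with a point for each library (OBS30 replicates 1, 3 and 4 to the left, control replicates 2, 3 and 4 to the right) and a black line at the mean of log2(TPM + 1). The genes prdx1, gstp1 and gstp2 stand far above control without overlap, sod1 overlaps, and prdx2 lies below control. Of these, prdx1, gstp1 and gstp2 were among the highest changes, which were picked only among genes without overlap.

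Iron storage and haem breakdown genes are also Nrf2 targets in vertebrates. The ferritin heavy chain-like gene fthl27 had 1059.9, 957 and 953 TPM in OBS30 larvae, against 242, 254 and 232 TPM in control larvae, and rose by 2.02 ± 0.06 (adjusted p = 1.6e-04). A second ferritin gene, fthl31, had 159, 161 and 174 TPM in OBS30 larvae, against 27.2, 34.5 and 30.3 TPM in control larvae, and rose by 2.39 ± 0.10 (adjusted p = 2.7e-04), and the more abundant fth1a rose by 0.27 ± 0.05 (adjusted p = 0.021). For fthl27 and fthl31 no OBS30 library came near a control library. The haem oxygenase gene hmox1a was more variable, with 37.8, 18.5 and 25.9 TPM in OBS30 larvae, against 7.21, 11.8 and 5.95 TPM in control larvae, and rose by 1.60 ± 0.32 (adjusted p = 0.024). Across the haem and iron list 3 of 23 tested genes rose and 5 fell. Among those that fell were the plasma carriers transferrin, tfa, at -1.27 ± 0.08 (adjusted p = 6.2e-04), and haptoglobin, hp, at -1.57 ± 0.13 (adjusted p = 0.0013), and of the haem synthesis genes alas2 at -0.81 ± 0.12 (adjusted p = 0.0093) and hmbsb at -0.92 ± 0.18 (adjusted p = 0.025). Transcripts of red cell genes took 0.429% ± 0.0991 of TPM in OBS30 larvae and 0.456% ± 0.00925 in control larvae (SD, n = 3 each), and their part in the haem synthesis values was not tested. The count of haem and iron genes called higher, 3, was 1 without control replicates 2 or 4 or OBS30 replicate 4, and the 5 called lower were 3 without control replicates 2 or 4 or OBS30 replicate 4 and 3 in the fit of all 12 libraries. The call of fth1a was lost without any control library or OBS30 replicates 3 or 4 or with median-of-ratios scaling, at an adjusted p of up to 0.11. The calls of hmox1a and hmbsb were lost without control replicates 2 or 4 or OBS30 replicates 1 or 4, at an adjusted p of up to 0.082. The call of alas2 was lost in the fit of all 12 libraries, at an adjusted p of up to 0.088.

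Of 17 tested aryl hydrocarbon receptor target genes 8 rose and 0 fell. The monooxygenase gene cyp1c1 had 21.9, 23.9 and 23.6 TPM in OBS30 larvae, against 8.78, 7.12 and 7.84 TPM in control larvae, and rose by 1.44 ± 0.10 (adjusted p = 8.6e-04), and cyp1c2 rose by 1.59 ± 0.13 (adjusted p = 0.0014), with OBS30 libraries all above control libraries. The classical target cyp1a had 90.7, 76.1 and 79.1 TPM in OBS30 larvae, against 54.2, 41.3 and 37.4 TPM in control larvae, and rose by 0.89 ± 0.15 (adjusted p = 0.014). The receptor gene ahr2 rose by 0.44 ± 0.09 (adjusted p = 0.027) and the sulfotransferase gene sult6b1 by 1.11 ± 0.08 (adjusted p = 8.5e-04). The ahr2 gene was chosen after its values were seen. The count of aryl hydrocarbon receptor target genes called higher, 8, was 5 without control replicate 3 or OBS30 replicate 3. The call of cyp1a was lost without control replicate 3, at an adjusted p of up to 0.051. The call of ahr2 was lost without any control library or OBS30 replicates 3 or 4 or in the fit of all 12 libraries, at an adjusted p of up to 0.26.

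Other cytochrome P450 and conjugation genes moved both ways: 15 rose, 16 fell and 48 were not called among 79 tested of 104 in the table. The highest rise of any gene named by the rule was that of cyp2k18, which had 34.0, 44.0 and 56.2 TPM in OBS30 larvae, against 5.37, 3.14 and 1.93 TPM in control larvae, a change of 3.40 ± 0.31 (adjusted p = 0.0019). The P450 gene cyp2y3 had 121, 104 and 114 TPM in OBS30 larvae, against 41.6, 34.1 and 30.4 TPM in control larvae, and rose by 1.66 ± 0.13 (adjusted p = 0.0011), and the glucuronosyltransferase gene ugt2b5, which makes bile-soluble conjugates, rose by 1.72 ± 0.11 (adjusted p = 6.1e-04). The OBS30 and control libraries of all 3 genes were separate. On the other side cyp2ad2 had 4.05, 4.49 and 4.55 TPM in OBS30 larvae, against 39.0, 28.5 and 28.1 TPM in control larvae, and fell by 2.60 ± 0.15 (adjusted p = 5.1e-04), and cyp4v8 fell by 2.37 ± 0.16 (adjusted p = 7.3e-04). The sulfotransferase genes sult3st2 and sult3st3 fell by 3.17 ± 0.34 (adjusted p = 0.0035) and 2.80 ± 0.30 (adjusted p = 0.0034). The second had 0.0300, 0 and 0.570 TPM in OBS30 larvae, against 4.65, 7.79 and 9.91 TPM in control larvae, and was nearly absent from OBS30 larvae. The count of P450 and conjugation genes called higher, 15, was 8 to 9 without control replicates 3 or 4 or OBS30 replicates 3 or 4, and the 16 called lower were 10 without control replicates 2 or 3.

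Of 96 tested genes of heat shock proteins and co-chaperones 12 rose and 7 fell, 12.5% and 7.29% of them, against 7.31% and 5.43% of all genes. The rises were led by the stress-inducible HSP70 chaperones. The gene hsp70l had 45.9, 44.0 and 43.0 TPM in OBS30 larvae, against 6.73, 5.55 and 6.13 TPM in control larvae, and rose by 2.67 ± 0.09 (adjusted p = 1.6e-04). The copy hsp70.1 had 19.6, 18.3 and 19.1 TPM in OBS30 larvae, against 2.49, 1.87 and 2.95 TPM in control larvae, and rose by 2.55 ± 0.14 (adjusted p = 5.1e-04). In both, every OBS30 library stood several fold above every control library. The copies hsp70.2 and hsp70.3 rose by 2.16 ± 0.22 (adjusted p = 0.0028) and 2.09 ± 0.16 (adjusted p = 0.0011), and the small heat shock gene hspb1 by 0.84 ± 0.11 (adjusted p = 0.0062). The hspb1 gene was chosen after its values were seen. The genes hsp90aa1.1, abundant in muscle, and hspa4l fell by 0.57 ± 0.11 (adjusted p = 0.025) and 0.46 ± 0.10 (adjusted p = 0.029), and the collagen chaperone gene serpinh1a by 0.77 ± 0.09 (adjusted p = 0.0047). The count of heat shock genes called higher, 12, was 7 without OBS30 replicate 3, and the 7 called lower were 2 to 3 without any control library or OBS30 replicates 3 or 4, 3 in the fit of all 12 libraries and 3 in the fit of 11 libraries. The call of hsp90aa1.1 was lost without any control library or OBS30 replicates 3 or 4, at an adjusted p of up to 0.074. The call of hspa4l was lost without any control library or OBS30 replicates 3 or 4, in the fit of all 12 libraries or in the fit of 11 libraries, at an adjusted p of up to 0.1.

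Immediate early genes, which are switched on within minutes by growth signals or injury, rose in part: of 54 tested AP-1 and related genes 24 rose, 0 fell and 30 were not called, with a median change of 0.51. The stress factor gene atf3 had 30.2, 23.4 and 17.4 TPM in OBS30 larvae, against 5.77, 6.32 and 5.37 TPM in control larvae, and rose by 1.82 ± 0.20 (adjusted p = 0.0034). The AP-1 subunit gene junba had 139, 86.3 and 83.2 TPM in OBS30 larvae, against 36.2, 37.5 and 28.6 TPM in control larvae, and rose by 1.53 ± 0.22 (adjusted p = 0.008), and jun, chosen after its values were seen, rose by 1.33 ± 0.14 (adjusted p = 0.0032). The OBS30 libraries of atf3 and junba spread widely, with replicate 1 highest, yet none overlapped control. The AP-1 subunit gene fosl1a had 29.1, 15.7 and 9.48 TPM in OBS30 larvae, against 3.34, 4.82 and 3.52 TPM in control larvae, and rose by 1.84 ± 0.37 (adjusted p = 0.025). The acute phase regulator gene cebpb had 314, 233 and 174 TPM in OBS30 larvae, against 75.4, 79.6 and 60.3 TPM in control larvae, and rose by 1.70 ± 0.22 (adjusted p = 0.0062). In the integrated stress and unfolded protein response list 15 of 70 rose and 2 fell. The phosphatase subunit gene ppp1r15a, which ends the translational block of that response, rose by 1.50 ± 0.16 (adjusted p = 0.0031), and ddit3, a factor of prolonged stress that was chosen after its values were seen, rose by 0.75 ± 0.13 (adjusted p = 0.014). The count of AP-1 genes called higher, 24, was 14 to 15 without control replicate 4 or OBS30 replicate 3, and the 0 called lower was 1 without control replicate 3 or OBS30 replicate 1 or with a filter on a mean of 5 TPM. The count of stress response genes called higher, 15, was 9 without control replicate 4 or OBS30 replicate 3, and the 2 called lower were 6 after quantile normalisation and 0 without OBS30 replicate 4. The call of fosl1a was lost without any control library or OBS30 replicate 3, at an adjusted p of up to 0.075. The call of ddit3 was lost without OBS30 replicates 3 or 4 or in the fit of all 12 libraries, at an adjusted p of up to 0.093.

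Of 50 tested genes of apoptosis and growth arrest 11 rose and 1 fell. The sestrin gene sesn1, which restrains growth under stress, had 139, 132 and 145 TPM in OBS30 larvae, against 69.3, 65.2 and 65.2 TPM in control larvae, and rose by 1.04 ± 0.06 (adjusted p = 6.0e-04). The executioner caspase gene casp3b rose by 1.11 ± 0.12 (adjusted p = 0.004) and the ferroptosis suppressor gene aifm2 by 0.97 ± 0.10 (adjusted p = 0.0034). In sesn1 all OBS30 libraries were above all control libraries. The gene cdkn1a, whose product stops the cell cycle, was not called, at 0.05 ± 0.20 (adjusted p = 0.9), and was chosen after its values were seen. The count of apoptosis and arrest genes called higher, 11, was 7 without control replicate 4 or OBS30 replicate 3.

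Fish leptin genes are induced in injured and regenerating tissue, and leptin signals through JAK and STAT proteins to the SOCS feedback inhibitors. The leptin gene lepb had 22.4, 23.8 and 12.4 TPM in OBS30 larvae, against 1.40, 0.520 and 0.890 TPM in control larvae, and rose by 3.38 ± 0.28 (adjusted p = 0.0014). The transcript was near 1 TPM in control larvae and passed the filter through its OBS30 libraries, so its place above the filter there adds no evidence. The feedback inhibitor gene socs3b had 29.8, 42.1 and 30.8 TPM in OBS30 larvae, against 12.9, 14.5 and 11.3 TPM in control larvae, and rose by 1.33 ± 0.16 (adjusted p = 0.0048). The gene socs3a had 47.8, 45.9 and 37.9 TPM in OBS30 larvae, against 23.4, 22.7 and 22.1 TPM in control larvae, and rose by 0.91 ± 0.10 (adjusted p = 0.004). Neither gene overlapped between the groups. In the list of leptin, JAK, STAT and SOCS genes 5 of 28 tested rose and 0 fell. The count of leptin and SOCS genes called higher, 5, was 3 without OBS30 replicates 3 or 4 and 3 with a filter on a mean of 5 TPM.

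Among cytokine and inflammatory genes 15 rose, 2 fell and 31 were not called among 48 tested of 84 in the table, with a median change of 0.34. The prostaglandin synthase gene ptgs2a had 51.7, 37.1 and 33.1 TPM in OBS30 larvae, against 15.7, 16.7 and 15.2 TPM in control larvae, and rose by 1.28 ± 0.17 (adjusted p = 0.0062). The neutrophil chemokine gene cxcl8a had 8.57, 3.91 and 4.44 TPM in OBS30 larvae, against 1.89, 0.780 and 0.480 TPM in control larvae, and rose by 1.69 ± 0.35 (adjusted p = 0.027). The interleukin gene il1b, an early signal of inflammation, had 15.0, 5.35 and 3.21 TPM in OBS30 larvae, against 0.880, 1.55 and 0.600 TPM in control larvae, and rose by 1.93 ± 0.49 (adjusted p = 0.049). For il1b the OBS30 libraries differed widely among themselves, and replicate 1 was far above the other OBS30 libraries. The tumour necrosis factor gene tnfa was listed at 0 in all 6 libraries and was not tested. The chemokine gene ccl19a.1 fell by 1.28 ± 0.25 (adjusted p = 0.025). Of 13 tested interferon response genes 5 rose and 1 fell, among them the regulator gene irf7, which rose by 1.11 ± 0.11 (adjusted p = 0.0029). The count of cytokine genes called higher, 15, was 2 to 8 without any 1 of the 6 libraries and 9 with a filter on a mean of 5 TPM, and the 2 called lower were 0 to 1 without any 1 of the 6 libraries, 0 with that filter and 0 in the fit of all 12 libraries. The count of interferon response genes called higher, 5, was 2 to 3 without OBS30 replicates 3 or 4 and 1 with that filter. The call of cxcl8a was lost without control replicates 3 or 4 or OBS30 replicates 1 or 4, at an adjusted p of up to 0.082. The call of il1b was lost without any control library or OBS30 replicate 3, with no filter, after quantile normalisation or with median-of-ratios scaling, at an adjusted p of up to 0.13. The call of ccl19a.1 was lost without any control library or OBS30 replicate 3 or in the fit of all 12 libraries, at an adjusted p of up to 0.076.

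Of 70 tested genes of matrix remodelling and wound repair 24 rose and 3 fell. The collagenase gene mmp13a had 84.5, 60.7 and 46.0 TPM in OBS30 larvae, against 9.18, 10.3 and 5.85 TPM in control larvae, and rose by 2.77 ± 0.27 (adjusted p = 0.0024). The gelatinase gene mmp9 had 47.9, 40.0 and 31.0 TPM in OBS30 larvae, against 7.96, 7.81 and 5.65 TPM in control larvae, and rose by 2.31 ± 0.19 (adjusted p = 0.0014). The OBS30 libraries of both proteases lay far above control. The protease inhibitor gene timp2b had 23.1, 38.4 and 20.6 TPM in OBS30 larvae, against 7.49, 4.47 and 5.61 TPM in control larvae, and rose by 2.02 ± 0.27 (adjusted p = 0.0064), and the collagen hydroxylase gene p4ha1b rose by 1.52 ± 0.19 (adjusted p = 0.0061). The count of matrix genes called higher, 24, was 13 to 14 without control replicate 4 or OBS30 replicate 3.

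**Figure D3:**
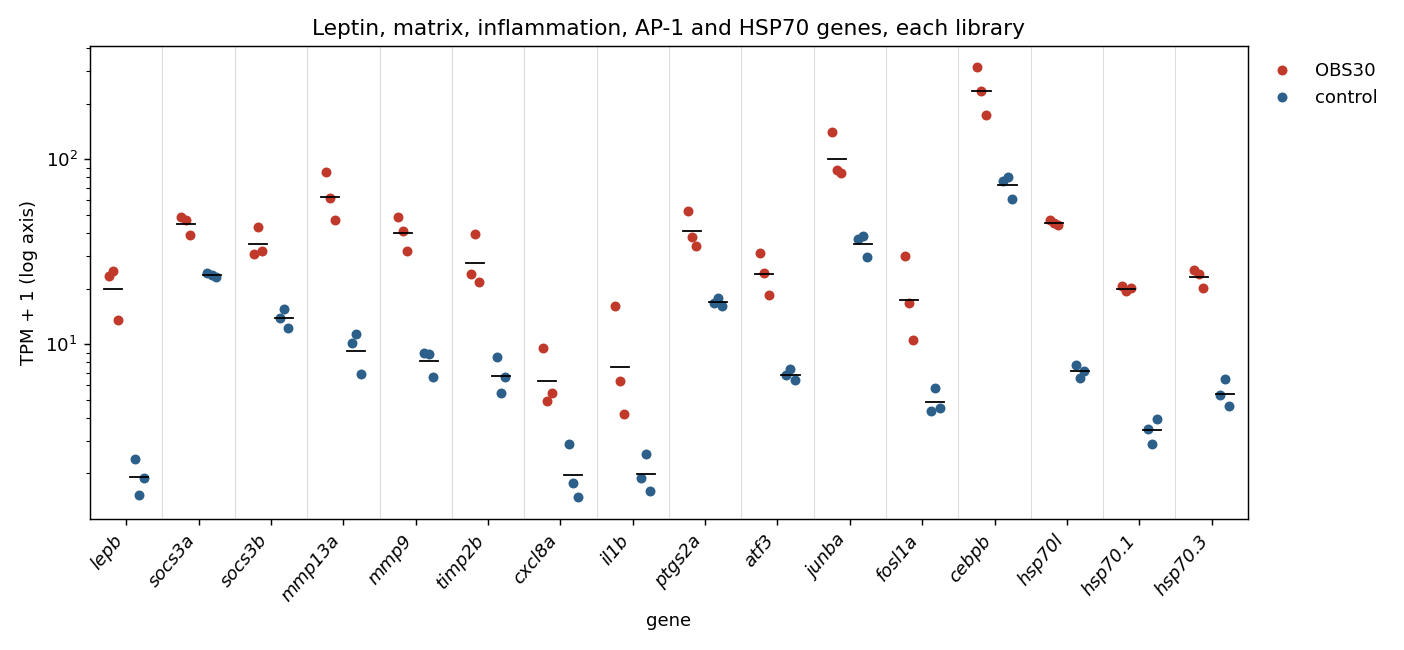
TPM + 1 on a log axis for 16 leptin, SOCS, matrix, inflammatory, AP-1 and HSP70 genes, with a point for each library (OBS30 to the left, control to the right) and a black line at the mean of log2(TPM + 1). The OBS30 points of lepb, mmp13a, mmp9 and hsp70l lie above all control points, and those of il1b, from 3.21 to 15.0 TPM, spread widely. Of these, lepb, mmp13a, mmp9 and hsp70l were among the highest changes, which were picked only among genes without overlap.

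Of 22 tested neutrophil genes 7 rose and 0 fell, but the genes that rose included mmp9, mmp13a, timp2b and s100a10b, which skin and wound cells also make. The last of these rose by 1.30 ± 0.08 (adjusted p = 6.0e-04). The gene of the granule enzyme myeloperoxidase, mpx, had 3.56, 5.01 and 4.52 TPM in OBS30 larvae, against 3.29, 2.71 and 2.90 TPM in control larvae, and was not called, at 0.43 ± 0.15 (adjusted p = 0.12). The lysozyme gene lyz had 25.9, 43.6 and 27.4 TPM in OBS30 larvae, against 76.2, 47.4 and 67.8 TPM in control larvae, and was not called either, at -0.97 ± 0.25 (adjusted p = 0.051), although its groups did not overlap. It was called lower without control replicate 3 or OBS30 replicate 3, with a filter on a mean of 5 TPM, with quantile normalisation or median-of-ratios scaling and in the fit of 11 libraries, and over all alternatives without the block its adjusted p was 0.033 to 0.14. The count of neutrophil genes called lower was 1 in those settings. Both genes were chosen after their values were seen. The summed neutrophil list was 864 to 1013 TPM in OBS30 larvae, against 508 to 627 TPM in control larvae, and its part in the cytokine and matrix values was not tested. Of 30 macrophage and microglia genes 4 rose (13.3%) and 6 fell (20%), against 7.31% and 5.43% of all genes. The lipid carrier gene apoeb, high in microglia, had 968, 1145 and 1124 TPM in OBS30 larvae, against 512, 439.9 and 413 TPM in control larvae, and rose by 1.25 ± 0.10 (adjusted p = 0.0013), and the lysosomal protease gene ctsba rose by 0.72 ± 0.11 (adjusted p = 0.011). Another lipid carrier of the list, apoc1, which liver and yolk layer also make, fell by 1.51 ± 0.13 (adjusted p = 0.0014). The count of macrophage genes called higher, 4, was 2 without control replicates 3 or 4 or OBS30 replicate 3, and the 6 called lower were 3 without any control library or OBS30 replicate 3.

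Glycolysis and hypoxia response genes had the highest share of rising members among the lists of more than 20 genes: 38 of 79 tested rose and 5 fell, with a median change of 0.47. The hypoxia target ankrd37 had 35.3, 36.3 and 35.9 TPM in OBS30 larvae, against 9.07, 4.61 and 4.83 TPM in control larvae, and rose by 2.41 ± 0.23 (adjusted p = 0.0021). The oxygen-sensing prolyl hydroxylase gene egln3 had 44.5, 36.8 and 33.8 TPM in OBS30 larvae, against 15.0, 4.82 and 6.12 TPM in control larvae, and rose by 2.17 ± 0.37 (adjusted p = 0.014). The stress gene ndrg1b had 139, 135 and 152 TPM in OBS30 larvae, against 47.4, 39.5 and 38.3 TPM in control larvae, and rose by 1.75 ± 0.10 (adjusted p = 5.1e-04). None of the 3 genes overlapped between OBS30 and control larvae. The hexokinase gene hk2, which starts glycolysis, rose by 1.71 ± 0.12 (adjusted p = 8.2e-04) and the lactate dehydrogenase gene ldha by 0.47 ± 0.05 (adjusted p = 0.0032). The transcript of the hypoxia factor hif1ab was not called, at 0.08 ± 0.06 (adjusted p = 0.45). The ldha and hif1ab genes were chosen after their values were seen. Among the genes that fell were genes of the liver: pyruvate kinase, pklr, fell by 1.80 ± 0.16 (adjusted p = 0.002) and the liver glucose transporter gene slc2a2 by 1.13 ± 0.17 (adjusted p = 0.011). The count of glycolysis genes called lower, 5, was 3 without OBS30 replicates 3 or 4.

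Genes of glucose production and glycogen moved both ways. Of 25 tested 7 rose and 5 fell. The muscle bisphosphatase gene fbp2 had 95.9, 76.5 and 70.7 TPM in OBS30 larvae, against 27.5, 32.3 and 24.1 TPM in control larvae, and rose by 1.50 ± 0.15 (adjusted p = 0.0026). Its paralogue fbp1b had 62.7, 49.1 and 48.7 TPM in OBS30 larvae, against 157, 137 and 137 TPM in control larvae, and fell by 1.42 ± 0.12 (adjusted p = 0.0014). Neither gene overlapped between the groups, and they moved in opposite directions. The muscle glycogen phosphorylase gene pygma rose by 0.91 ± 0.07 (adjusted p = 9.7e-04), and the glucose-6-phosphatase gene g6pca.2 and the pyruvate carboxylase gene pcxb fell by 1.20 ± 0.13 (adjusted p = 0.0033) and 1.23 ± 0.11 (adjusted p = 0.0018). The count of glucose production genes called higher, 7, was 4 without control replicate 3.

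Uncoupling proteins let protons back into the mitochondrial matrix. The muscle form ucp3 had 239, 172 and 182 TPM in OBS30 larvae, against 69.7, 68.4 and 60.1 TPM in control larvae, and rose by 1.55 ± 0.14 (adjusted p = 0.0016). The widely expressed ucp2 had 821, 704 and 719 TPM in OBS30 larvae, against 367, 361 and 341 TPM in control larvae, and rose by 1.06 ± 0.07 (adjusted p = 7.3e-04). All OBS30 libraries were above all control libraries in both. The pyruvate dehydrogenase kinase gene pdk4, which turns fuel use from glucose to fat, rose by 1.11 ± 0.13 (adjusted p = 0.0045). In the whole list of fatty acid oxidation and PPAR targets 6 of 65 rose (9.23%) and 13 fell (20%), against 7.31% and 5.43% of all genes. The fatty acid transporter gene cd36 fell by 1.52 ± 0.10 (adjusted p = 6.4e-04). Of 87 tested nuclear genes of oxidative phosphorylation 3 rose (3.45%) and 7 fell (8.05%), against 7.31% and 5.43% of all genes. The respiratory chain genes cox6b1, cox6a2 and ndufa4 were called lower (adjusted p = 0.007, 0.0074 and 0.0099). Of 13 genes of the mitochondrial genome 3 rose and 1 fell. The cytochrome b gene mt-cyb rose by 0.46 ± 0.05 (adjusted p = 0.0032). The count of fatty acid oxidation genes called lower, 13, was 6 to 7 without control replicate 2 or OBS30 replicates 3 or 4. The count of mitochondrial genome genes called higher, 3, was 1 with median-of-ratios scaling. The count of oxidative phosphorylation genes called higher, 3, was 0 to 1 without any 1 of the 6 libraries, 5 with a filter on a mean of 5 TPM, 6 after quantile normalisation, 0 with median-of-ratios scaling and 9 in the fit of 11 libraries.

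Of 72 tested hepatocyte genes 38 fell and 9 rose, with a median change of -0.62, and of 58 complement, coagulation and acute phase genes 30 fell and 2 rose. The hepatocyte, complement and apolipoprotein lists share members. The fetuin gene fetub, a secreted liver glycoprotein, had 37.5, 39.4 and 39.2 TPM in OBS30 larvae, against 215, 182 and 161 TPM in control larvae, and fell by 2.23 ± 0.11 (adjusted p = 4.9e-04). The related ahsg2 was listed at 0, 0 and 0.0900 TPM in OBS30 larvae, against 16.9, 12.2 and 10.9 TPM in control larvae, and was called lower (adjusted p = 4.9e-04). Both genes were separate between the groups by a wide margin. The mannose-binding lectin gene mbl2, which starts a complement pathway, had 3.87, 1.89 and 1.39 TPM in OBS30 larvae, against 17.6, 17.3 and 13.5 TPM in control larvae, and fell by 2.40 ± 0.27 (adjusted p = 0.0041). The acute phase gene crp2 fell by 2.35 ± 0.42 (adjusted p = 0.017), and transthyretin, ttr, which carries thyroid hormone and retinol-binding protein, by 1.68 ± 0.14 (adjusted p = 0.0013). The abundant hepatocyte fatty acid-binding gene fabp10a, chosen after its values were seen, had 1085, 751 and 821 TPM in OBS30 larvae, against 1531, 1499.6 and 1233 TPM in control larvae, and fell by 0.69 ± 0.15 (adjusted p = 0.033). Its groups did not overlap. Some liver genes rose, among them cyp2y3 and the tyrosine breakdown gene fah, at 1.00 ± 0.10 (adjusted p = 0.0024). The count of complement genes called lower, 30, was 13 to 17 without control replicates 2 or 3 or OBS30 replicates 3 or 4. The count of hepatocyte genes called higher, 9, was 5 with median-of-ratios scaling. The call of crp2 was lost without control replicates 3 or 4 or OBS30 replicate 4, at an adjusted p of up to 0.06. The call of fabp10a was lost without control replicates 2 or 3 or OBS30 replicates 3 or 4, with no filter or with median-of-ratios scaling, at an adjusted p of up to 0.1.

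Of 27 apolipoprotein genes 14 fell and 4 rose. The carrier gene apom had 46.8, 51.5 and 52.9 TPM in OBS30 larvae, against 170.5, 154 and 139.6 TPM in control larvae, and fell by 1.60 ± 0.09 (adjusted p = 5.4e-04), and apoa4b.1, made in yolk layer and gut, had 180.5, 179.9 and 148 TPM in OBS30 larvae, against 806, 509.9 and 561 TPM in control larvae, and fell by 1.86 ± 0.18 (adjusted p = 0.0023). In both genes each OBS30 library was below each control library. The structural gene of lipoprotein particles apoba fell by 1.91 ± 0.18 (adjusted p = 0.002), and apoa1b, which averaged 1956 ± 152 TPM in OBS30 larvae and 3275 ± 480.4 TPM in control larvae (SD, n = 3 each) and was chosen after its values were seen, by 0.74 ± 0.12 (adjusted p = 0.012). The phospholipid transfer gene pltp rose by 1.34 ± 0.14 (adjusted p = 0.0033). The summed apolipoprotein list was 6086 to 6634 TPM in OBS30 larvae, against 9116 to 11649 TPM in control larvae. Among genes of the yolk and early stages the antifreeze-type protein gene afp4 had 103, 82.3 and 73.5 TPM in OBS30 larvae, against 459, 344 and 329.9 TPM in control larvae, and fell by 2.11 ± 0.17 (adjusted p = 0.0012), and 6 of 14 tested genes fell and 1 rose. The part of yolk use in the apolipoprotein values was not tested.

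Sterol and fatty acid synthesis genes fell in part. Of 48 tested genes of cholesterol synthesis and transport 17 fell and 6 rose, with a median change of -0.30. The sterol oxidase gene msmo1 had 11.3, 12.7 and 13.7 TPM in OBS30 larvae, against 42.9, 36.1 and 40.2 TPM in control larvae, and fell by 1.59 ± 0.11 (adjusted p = 7.3e-04). The demethylase gene cyp51 had 9.44, 13.4 and 12.6 TPM in OBS30 larvae, against 34.9, 27.9 and 28.4 TPM in control larvae, and fell by 1.30 ± 0.16 (adjusted p = 0.0048). The entry enzyme hmgcs1, chosen after its values were seen, fell by 0.94 ± 0.13 (adjusted p = 0.0085). The OBS30 libraries of all 3 genes lay below control. The bile acid enzyme gene cyp7a1 had 3.47, 4.84 and 3.67 TPM in OBS30 larvae, against 25.4, 17.9 and 20.1 TPM in control larvae, and fell by 2.14 ± 0.17 (adjusted p = 0.0012). The exporter gene abca1a, which loads cholesterol onto lipoproteins, had 55.2, 67.6 and 75.4 TPM in OBS30 larvae, against 19.8, 20.5 and 18.1 TPM in control larvae, and rose by 1.70 ± 0.13 (adjusted p = 9.6e-04). Among 46 fatty acid synthesis genes 5 rose (10.9%) and 9 fell (19.6%), against 7.31% and 5.43% of all genes. Among those that fell were genes of the steps that make long polyunsaturated chains. The desaturase gene fads2 had 2.93, 2.88 and 2.09 TPM in OBS30 larvae, against 25.9, 20.1 and 20.6 TPM in control larvae, and fell by 2.67 ± 0.15 (adjusted p = 5.1e-04). The elongase gene elovl2 had 1.01, 1.15 and 0.950 TPM in OBS30 larvae, against 13.1, 8.26 and 10.6 TPM in control larvae, and fell by 2.50 ± 0.18 (adjusted p = 8.5e-04), and elovl4b fell by 1.04 ± 0.14 (adjusted p = 0.0066). The fatty acid synthase gene fasn, chosen after its values were seen, was not called, at 0.21 ± 0.21 (adjusted p = 0.55). The adipocyte regulator gene pparg rose by 1.11 ± 0.14 (adjusted p = 0.0055). The count of cholesterol genes called higher, 6, was 3 without control replicate 4 or OBS30 replicates 3 or 4. The count of fatty acid synthesis genes called higher, 5, was 3 without control replicates 2 or 3 or OBS30 replicate 4 and 3 in the fit of all 12 libraries.

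Of 58 tested enterocyte genes 31 fell and 3 rose, with a median change of -0.64. The intestinal retinol-binding gene rbp2a had 159.6, 126 and 122 TPM in OBS30 larvae, against 662, 546 and 530.2 TPM in control larvae, and fell by 2.09 ± 0.13 (adjusted p = 6.1e-04). The brush border protease genes mep1a.1 and mep1a.2 fell by 2.09 ± 0.18 (adjusted p = 0.0014) and 2.44 ± 0.15 (adjusted p = 6.0e-04), and the chitinase gene chia.1 by 2.49 ± 0.37 (adjusted p = 0.0092). The OBS30 libraries of rbp2a were all below its control libraries. The microvillus gene vil1, a general marker of enterocytes that was chosen after its values were seen, had 68.1, 56.5 and 65.2 TPM in OBS30 larvae, against 103, 88.2 and 83.0 TPM in control larvae, and fell by 0.52 ± 0.11 (adjusted p = 0.029), with no overlap. Of 17 mucosal and secretory genes 6 fell and 1 rose. The intelectin gene itln3, a lectin of mucus that binds microbial sugars, had 0.500, 0.370 and 0.690 TPM in OBS30 larvae, against 13.4, 12.8 and 8.88 TPM in control larvae, and fell by 3.05 ± 0.19 (adjusted p = 6.0e-04). The count of enterocyte genes called higher, 3, was 1 without control replicates 3 or 4 or any OBS30 library, 1 with no filter and 1 with median-of-ratios scaling. The count of mucosal genes called lower, 6, was 2 to 3 without any control library or OBS30 replicate 4. The call of vil1 was lost without control replicates 2 or 3 or OBS30 replicates 3 or 4 or with median-of-ratios scaling, at an adjusted p of up to 0.078.

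Of 25 exocrine pancreas genes 10 fell and 0 rose. The amylase gene amy2a had 15.6, 13.2 and 16.1 TPM in OBS30 larvae, against 125, 78.9 and 66.9 TPM in control larvae, and fell by 2.47 ± 0.23 (adjusted p = 0.002). The trypsin gene prss59.1 had 68.2, 54.4 and 66.2 TPM in OBS30 larvae, against 426, 295 and 265 TPM in control larvae, and fell by 2.34 ± 0.19 (adjusted p = 0.0012), and the elastase gene ela3l fell by 2.23 ± 0.20 (adjusted p = 0.0019). Each OBS30 library of these genes was below each control library, and control replicate 2 was the highest of all. The zymogen granule gene sycn.3 averaged 12.2 ± 0.727 TPM in OBS30 larvae and 82.5 ± 31.5 TPM in control larvae (SD, n = 3 each), and fell by 2.58 ± 0.29 (adjusted p = 0.004). The summed list was 2217 to 2258 TPM in OBS30 larvae, against 4367, 3428 and 2871 TPM in control replicates 2, 3 and 4. In the islets, the insulin gene ins, chosen after its values were seen, was not called, at -0.63 ± 0.23 (adjusted p = 0.14).

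**Figure D4:**
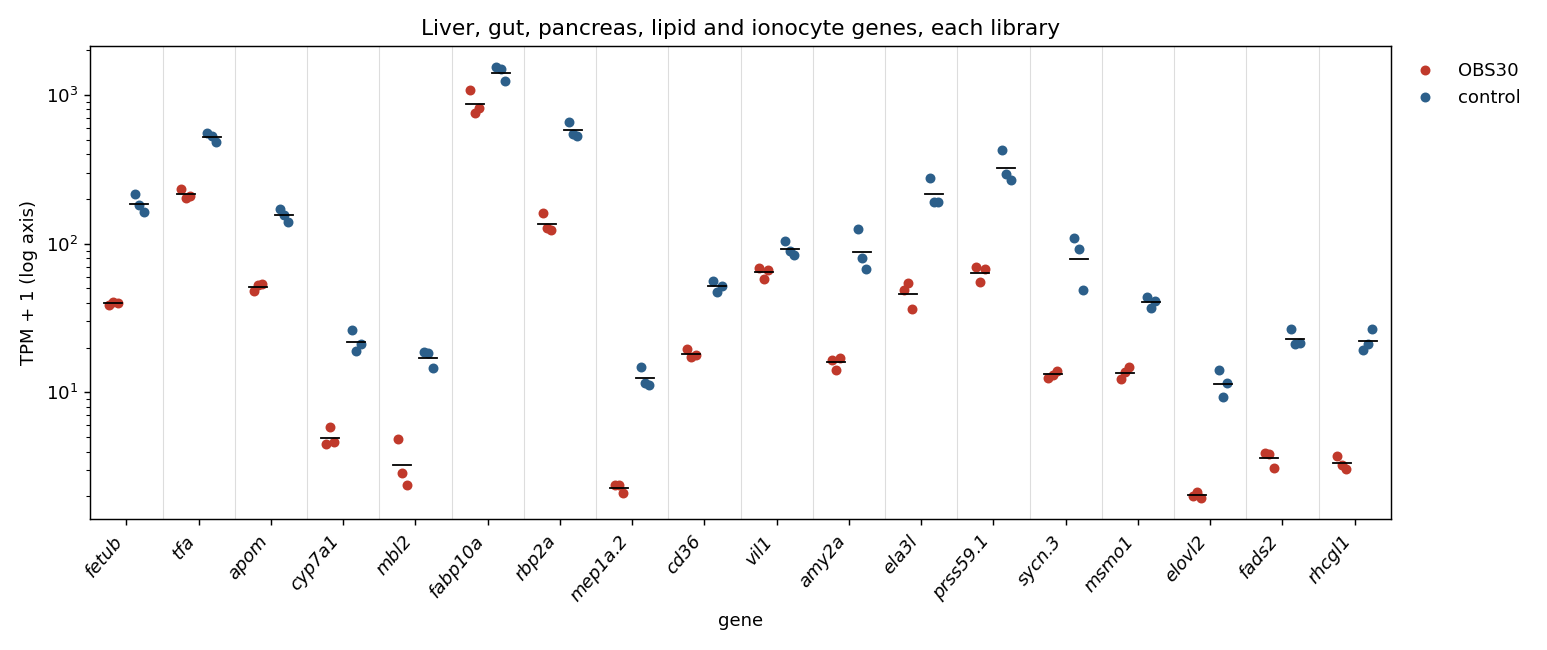
TPM + 1 on a log axis for 18 genes of the liver, gut, exocrine pancreas, lipid synthesis and ionocytes, with a point for each library (OBS30 to the left, control to the right) and a black line at the mean of log2(TPM + 1). The OBS30 points of the genes shown, all picked among genes that fell, lie below their control points. The differences are largest in rhcgl1, fads2, sycn.3 and elovl2 and smallest in fabp10a and vil1. The lowest changes were picked only among genes without overlap. In the ionocyte list, shown here by rhcgl1 only, 11 of 42 tested genes rose and 3 fell.

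Eye genes fell in part. Of 57 tested lens genes 29 fell, 0 rose and 28 were not called, and of 87 photoreceptor and visual cycle genes 31 fell, 0 rose and 56 were not called. The chaperone crystallin gene cryaa had 20.4, 20.0 and 25.2 TPM in OBS30 larvae, against 46.4, 46.8 and 48.2 TPM in control larvae, and fell by 1.08 ± 0.10 (adjusted p = 0.0022). The abundant gamma crystallin gene crygm2d15 had 381, 329 and 324 TPM in OBS30 larvae, against 608, 547 and 633 TPM in control larvae, and fell by 0.79 ± 0.09 (adjusted p = 0.0037). The cone arrestin gene arr3b, which ends the light response of cones, had 186, 172 and 171 TPM in OBS30 larvae, against 390.1, 415 and 449 TPM in control larvae, and fell by 1.24 ± 0.07 (adjusted p = 5.1e-04). The cone opsin kinase gene grk7a fell by 1.31 ± 0.07 (adjusted p = 5.1e-04), and the rod opsin gene rho, chosen after its values were seen, by 0.44 ± 0.05 (adjusted p = 0.0054). In all of these genes the OBS30 libraries lay below the control libraries. Summed photoreceptor genes were 8677 to 9489 TPM in OBS30 larvae, against 12752 to 13543 TPM in control larvae. The count of lens genes called lower, 29, was 15 to 18 without any control library or OBS30 replicates 3 or 4 and 14 with median-of-ratios scaling. The count of photoreceptor genes called lower, 31, was 19 to 20 without any control library, and the 0 called higher was 1 without control replicate 2.

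Of 106 neuronal genes 23 fell and 2 rose, with a median change of -0.21, and tubulin genes led the falls. The gene tubb5 had 124, 127 and 124 TPM in OBS30 larvae, against 237, 222 and 219 TPM in control larvae, and fell by 0.85 ± 0.06 (adjusted p = 7.1e-04), and tubb2b fell by 0.79 ± 0.05 (adjusted p = 7.1e-04). No library of tubb5 overlapped between the groups. The gene stmn4l, of the stathmin family that regulates microtubules, went the other way, with 167, 164 and 148 TPM in OBS30 larvae, against 66.6, 60.6 and 61.6 TPM in control larvae, and rose by 1.33 ± 0.07 (adjusted p = 5.1e-04). Of 33 glial and myelin genes 7 rose and 2 fell. Glutamine synthetase, glula, which clears glutamate and ammonia, had 861, 885 and 926 TPM in OBS30 larvae, against 414, 427 and 386 TPM in control larvae, and rose by 1.12 ± 0.06 (adjusted p = 5.1e-04), and gfap, an astroglial filament gene chosen after its values were seen, rose by 0.51 ± 0.06 (adjusted p = 0.0048). Both do not stand for the list, in which 24 genes were not called. The brain fatty acid-binding gene fabp7a was called lower (adjusted p = 0.023). That call was lost without any control library or OBS30 replicates 3 or 4, after quantile normalisation or with median-of-ratios scaling, at an adjusted p of up to 0.12. The count of neuronal genes called lower, 23, was 13 to 15 without any control library or OBS30 replicate 3, 35 after quantile normalisation, 10 in the fit of all 12 libraries and 13 in the fit of 11 libraries. The count of glial genes called higher, 7, was 4 without control replicate 3 or OBS30 replicate 3, and the 2 called lower were 0 without control replicate 3 or OBS30 replicate 4.

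Cell division genes fell in part: of 110 tested 33 fell, 0 rose and 77 were not called, with a median change of -0.37. The spindle checkpoint gene mad2l1 had 16.2, 16.4 and 15.8 TPM in OBS30 larvae, against 29.3, 29.0 and 31.1 TPM in control larvae, and fell by 0.85 ± 0.07 (adjusted p = 0.0017). The replication clamp gene pcna had 157, 159 and 142 TPM in OBS30 larvae, against 209, 202 and 210.4 TPM in control larvae, and fell by 0.44 ± 0.06 (adjusted p = 0.0091). Both were lower in every OBS30 library. The helicase gene mcm5 fell by 0.52 ± 0.08 (adjusted p = 0.0097) and the division marker mki67 by 0.56 ± 0.10 (adjusted p = 0.016), both chosen after their values were seen. The count of cell division genes called lower, 33, was 10 to 16 without any control library or OBS30 replicates 3 or 4, and the 0 called higher was 1 without OBS30 replicate 1 or with median-of-ratios scaling. The call of mki67 was lost without control replicates 2 or 4 or OBS30 replicate 4 or in the fit of all 12 libraries, at an adjusted p of up to 0.085.

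Of 82 ribosomal protein genes 52 fell and 0 rose, by small amounts: the median change was -0.25, and rpl23a, at 3409 ± 119 TPM in OBS30 larvae and 4370.2 ± 65.8 TPM in control larvae (SD, n = 3 each), fell by 0.36 ± 0.04 (adjusted p = 0.0047). The count of ribosomal protein genes called lower, 52, was 9 to 18 without any control library or OBS30 replicates 3 or 4, 27 with no filter, 33 after quantile normalisation, 2 with median-of-ratios scaling and 17 in the fit of all 12 libraries. The call of rpl23a was lost with median-of-ratios scaling, at an adjusted p of up to 0.069. Of 94 ribosome biogenesis genes 16 fell and 0 rose. The count of ribosome biogenesis genes called lower, 16, was 2 to 7 without any control library or OBS30 replicates 1 or 4 and 26 after quantile normalisation.

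Muscle genes moved in part. Of 104 tested skeletal muscle genes 29 rose and 5 fell. The sarcomere gene tcap, which anchors titin, had 149, 176 and 182 TPM in OBS30 larvae, against 59.5, 48.3 and 51.1 TPM in control larvae, and rose by 1.65 ± 0.11 (adjusted p = 7.3e-04). The glycolytic enzyme pgam2 had 399, 344 and 331 TPM in OBS30 larvae, against 141, 149 and 152 TPM in control larvae, and rose by 1.28 ± 0.08 (adjusted p = 6.4e-04). No library of either gene overlapped between the groups. The slow myosin gene smyhc2 rose by 1.39 ± 0.22 (adjusted p = 0.013). The fast fibre calcium store gene casq1a fell by 0.80 ± 0.10 (adjusted p = 0.0065), and the actin gene acta1b, at 1174 ± 18.8 TPM in OBS30 larvae and 1507 ± 73.3 TPM in control larvae (SD, n = 3 each) and chosen after its values were seen, by 0.36 ± 0.05 (adjusted p = 0.0079). Of 26 heart genes 6 rose and 0 fell. The atrial hormone gene nppa, a marker of load on the heart, had 12.3, 15.7 and 14.5 TPM in OBS30 larvae, against 5.23, 5.02 and 4.13 TPM in control larvae, and rose by 1.39 ± 0.13 (adjusted p = 0.0023). The count of skeletal muscle genes called higher, 29, was 19 with median-of-ratios scaling, and the 5 called lower were 10 after quantile normalisation and 9 in the fit of 11 libraries. The count of heart genes called higher, 6, was 3 without control replicate 4 or OBS30 replicate 3.

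Tight junction genes rose more often than they fell: of 45 claudin and junction genes 17 rose and 1 fell. The occludin gene oclna had 44.7, 43.7 and 42.4 TPM in OBS30 larvae, against 18.7, 18.9 and 15.8 TPM in control larvae, and rose by 1.25 ± 0.09 (adjusted p = 9.4e-04). The epidermal claudin gene cldn23a had 62.1, 78.4 and 70.1 TPM in OBS30 larvae, against 24.8, 34.7 and 30.3 TPM in control larvae, and rose by 1.21 ± 0.14 (adjusted p = 0.0048). All OBS30 libraries of both were above control. Keratins divided, with 16 higher and 11 lower of 50 in the keratin and epidermis list and a median change of 0.08. The keratin genes given next were among the 11 that fell and do not stand for the list. The abundant keratin gene krtt1c19e averaged 864 ± 86.7 TPM in OBS30 larvae and 1740.4 ± 101 TPM in control larvae (SD, n = 3 each), and fell by 1.01 ± 0.08 (adjusted p = 0.0014). The keratin gene cyt1l averaged 541 ± 34.7 TPM in OBS30 larvae and 1094 ± 88.0 TPM in control larvae (SD, n = 3 each), and fell by 1.01 ± 0.08 (adjusted p = 0.0011). Among the ionocytes, the skin cells that exchange ions and ammonia with water, 11 of 42 genes rose and 3 fell. The ammonia channel gene rhcgl1 had 2.73, 2.25 and 2.05 TPM in OBS30 larvae, against 18.3, 20.3 and 25.6 TPM in control larvae, and fell by 2.74 ± 0.16 (adjusted p = 5.1e-04). The gene rhcga had 39.6, 42.1 and 53.3 TPM in OBS30 larvae, against 157, 141 and 158 TPM in control larvae, and fell by 1.74 ± 0.12 (adjusted p = 7.7e-04). The calcium channel gene trpv6 had 16.1, 11.1 and 12.8 TPM in OBS30 larvae, against 4.19, 2.58 and 4.00 TPM in control larvae, and rose by 1.65 ± 0.20 (adjusted p = 0.0048). The ammonia channels were low in all OBS30 libraries, and the calcium channel was high in all of them. The transglutaminase gene tgm1l3 had 1.21, 1.57 and 1.10 TPM in OBS30 larvae, against 14.1, 12.9 and 11.8 TPM in control larvae, and fell by 2.61 ± 0.13 (adjusted p = 5.1e-04). The count of ionocyte genes called higher, 11, was 4 to 6 without any control library or OBS30 replicates 3 or 4, 7 with no filter and 7 in the fit of all 12 libraries.

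The collagen gene col10a1a, of cartilage and bone, had 86.5, 68.0 and 62.1 TPM in OBS30 larvae, against 19.4, 21.4 and 16.6 TPM in control larvae, and rose by 1.86 ± 0.15 (adjusted p = 0.0013). The mineralisation family gene scpp9 had 17.4, 16.3 and 21.4 TPM in OBS30 larvae, against 0.460, 2.80 and 0.420 TPM in control larvae, and rose by 3.27 ± 0.39 (adjusted p = 0.0048). Both were higher in every OBS30 library. Of 46 cartilage and bone genes 9 rose and 2 fell. Of 47 endothelial genes 6 rose (12.8%) and 0 fell, against 7.31% and 5.43% of all genes. The hyaluronan receptor gene lyve1a of lymphatic vessels had 17.1, 15.4 and 14.8 TPM in OBS30 larvae, against 5.82, 4.55 and 5.84 TPM in control larvae, and rose by 1.39 ± 0.12 (adjusted p = 0.0018), with no overlap between the groups. Of 28 red cell genes 3 rose (10.7%) and 4 fell (14.3%), against 7.31% and 5.43% of all genes. The carbonic anhydrase gene cahz was among those that fell, by 0.82 ± 0.08 (adjusted p = 0.0022). The summed red cell list overlapped between the groups, at 3540 to 5414 TPM in OBS30 larvae and 4500 to 4667 TPM in control larvae. The count of cartilage and bone genes called higher, 9, was 3 to 5 without control replicates 3 or 4 or OBS30 replicates 3 or 4 and 5 in the fit of all 12 libraries. The count of red cell genes called lower, 4, was 2 without any control library or OBS30 replicate 4 and 2 with no filter.

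Clock genes were higher in part. Of 48 tested 19 rose and 2 fell. The repressor gene cry2 had 67.4, 61.3 and 73.9 TPM in OBS30 larvae, against 30.0, 29.1 and 31.4 TPM in control larvae, and rose by 1.13 ± 0.09 (adjusted p = 0.0011). The repressor gene ciarta had 71.7, 71.0 and 73.4 TPM in OBS30 larvae, against 37.8, 32.9 and 34.4 TPM in control larvae, and rose by 1.02 ± 0.07 (adjusted p = 9.4e-04), and nr1d1, chosen after its values were seen, rose by 0.52 ± 0.07 (adjusted p = 0.0072). The cryptochrome gene cry3b fell by 1.24 ± 0.07 (adjusted p = 5.3e-04). The OBS30 libraries of cry2 and ciarta were all above the control libraries. The labels used here do not give the time of day at sampling. The count of clock genes called higher, 19, was 10 without control replicates 3 or 4 or OBS30 replicates 3 or 4 and 12 in the fit of all 12 libraries, and the 2 called lower were 4 after quantile normalisation.

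The pituitary gene pomca, the source of ACTH, had 6.03, 7.42 and 5.52 TPM in OBS30 larvae, against 1.32, 0.570 and 1.02 TPM in control larvae, and rose by 1.90 ± 0.19 (adjusted p = 0.0028). The parathyroid hormone gene pth1a, which raises blood calcium, had 8.70, 6.56 and 5.64 TPM in OBS30 larvae, against 1.11, 0.820 and 1.23 TPM in control larvae, and rose by 1.94 ± 0.18 (adjusted p = 0.0021), and the growth hormone gene gh1 rose by 1.27 ± 0.21 (adjusted p = 0.012). No OBS30 library of pomca or pth1a overlapped control. The metal-binding gene mt2 had 682, 556 and 634 TPM in OBS30 larvae, against 244, 287 and 234 TPM in control larvae, and rose by 1.29 ± 0.11 (adjusted p = 0.0013). The glucocorticoid receptor gene nr3c1, chosen after its values were seen, was not called, at -0.31 ± 0.15 (adjusted p = 0.24), and the receptor's target fkbp5 fell by 0.34 ± 0.07 (adjusted p = 0.026). Of 28 stress axis and glucocorticoid genes 9 rose and 3 fell. Of 21 insulin-like growth factor genes 7 rose and 0 fell, and the binding protein gene igfbp1b, which limits growth under stress, rose by 1.06 ± 0.15 (adjusted p = 0.0079). The vitamin B12 carrier gene tcnbb had 629, 485 and 461 TPM in OBS30 larvae, against 144, 117 and 158 TPM in control larvae, and rose by 1.90 ± 0.15 (adjusted p = 0.0013), with all OBS30 libraries above control. The yolk precursor gene vtg1, a marker of oestrogen action, had 0.740, 1.21 and 1.00 TPM in OBS30 larvae, against 1.03, 0.460 and 1.09 TPM in control larvae, and was not called, at 0.10 ± 0.21 (adjusted p = 0.79). The count of stress axis genes called higher, 9, was 3 to 5 without control replicates 3 or 4 or OBS30 replicates 3 or 4 and 4 in the fit of all 12 libraries, and the 3 called lower were 0 without control replicates 2 or 3 or OBS30 replicates 3 or 4, 1 with median-of-ratios scaling and 1 in the fit of all 12 libraries. The count of growth factor genes called higher, 7, was 3 without control replicates 3 or 4 or OBS30 replicate 4 and 4 in the fit of all 12 libraries. The call of fkbp5 was lost without control replicates 2 or 3 or OBS30 replicates 3 or 4, with median-of-ratios scaling, in the fit of all 12 libraries or in the fit of 11 libraries, at an adjusted p of up to 0.088.

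A few of the highest and lowest changes lay outside the gene lists. The dehydrogenase family gene dhrs13l1 had 190.1, 202 and 203 TPM in OBS30 larvae, against 46.8, 33.1 and 35.1 TPM in control larvae, and rose by 2.36 ± 0.13 (adjusted p = 5.1e-04). The monocarboxylate transporter family gene slc16a9a had 32.9, 38.0 and 33.9 TPM in OBS30 larvae, against 7.49, 6.90 and 5.61 TPM in control larvae, and rose by 2.23 ± 0.12 (adjusted p = 5.1e-04), and ms4a17a.5, of a family of membrane proteins, rose by 2.43 ± 0.21 (adjusted p = 0.0017). The rule that picked these genes required groups that did not overlap. The gene plekhs1, named for a pleckstrin homology domain, had 0.270, 0.630 and 0.180 TPM in OBS30 larvae, against 7.98, 6.62 and 6.37 TPM in control larvae, and fell by 2.56 ± 0.18 (adjusted p = 7.7e-04). The telomere protein gene pot1 averaged 0.910 ± 0.221 TPM in OBS30 larvae and 11.4 ± 6.81 TPM in control larvae (SD, n = 3 each), and fell by 2.52 ± 0.44 (adjusted p = 0.016), with control libraries that differed among themselves. The call of pot1 was lost without control replicate 2 or OBS30 replicate 4, at an adjusted p of up to 0.059.

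The higher dose was also set against the lower one. In OBS30 against OBS20 larvae, 115 of 28315 genes (0.406%) were called higher and 29 (0.102%) lower, and the median change over all genes was 0.11. These counts were not stable when 1 library was left out. Without OBS20 replicate 2, OBS30 replicate 3 or OBS30 replicate 4, 0 genes were called. In these fits 2930, 1778 and 1646 genes had an unadjusted p below 0.05 in limma, against 2797 with all 6 libraries. Whether the loss came from the library left out or from fewer libraries was not tested. Without OBS20 replicate 1 the counts were 5 and 0, and without OBS30 replicate 1 they were 1 and 0. Without OBS20 replicate 3 they were 152 higher and 43 lower; that library had the lowest median TPM of the 12 libraries, 1.27. The leptin gene lepb had 22.4, 23.8 and 12.4 TPM in OBS30 larvae, against 0.900, 0 and 1.25 TPM in OBS20 larvae, a difference of 3.61 ± 0.38 (adjusted p = 0.027). The collagenase gene mmp13a had 84.5, 60.7 and 46.0 TPM in OBS30 larvae, against 11.3, 13.1 and 12.6 TPM in OBS20 larvae, a difference of 2.23 ± 0.22 (adjusted p = 0.026). The feedback gene socs3a had 47.8, 45.9 and 37.9 TPM in OBS30 larvae, against 15.5, 11.4 and 17.1 TPM in OBS20 larvae, a difference of 1.53 ± 0.18 (adjusted p = 0.031). In all 3 genes the OBS30 libraries lay above the OBS20 libraries. The chaperone gene hsp70l differed by 1.85 ± 0.11 (adjusted p = 0.017), the protease inhibitor gene timp2b by 2.04 ± 0.29 (adjusted p = 0.049) and mmp9 by 1.67 ± 0.19 (adjusted p = 0.029). The detoxification genes prdx1 and fthl27 differed by 0.77 ± 0.09 (adjusted p = 0.032) and 0.81 ± 0.08 (adjusted p = 0.026), and gstp1 was not called, at 0.45 ± 0.08 (adjusted p = 0.082). The P450 gene cyp2k18 had 34.0, 44.0 and 56.2 TPM in OBS30 larvae, against 46.9, 35.7 and 51.0 TPM in OBS20 larvae, with overlapping groups and a difference of -0.01 ± 0.22 (adjusted p = 1).

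Lower at the higher dose were the pancreas genes prss59.1, with 68.2, 54.4 and 66.2 TPM in OBS30 larvae, against 214, 159.8 and 291 TPM in OBS20 larvae and a difference of -1.76 ± 0.22 (adjusted p = 0.037), and amy2a, at -1.68 ± 0.13 (adjusted p = 0.017). The ammonia channel gene rhcgl1 had 2.73, 2.25 and 2.05 TPM in OBS30 larvae, against 15.0, 14.9 and 9.54 TPM in OBS20 larvae, a difference of -2.06 ± 0.22 (adjusted p = 0.027), and rhcga was at -1.64 ± 0.14 (adjusted p = 0.022). All OBS30 libraries of prss59.1 and rhcgl1 were below the OBS20 libraries, which the rule for the lowest changes required. The gene eevs, for the sunscreen compound gadusol, differed by -1.17 ± 0.12 (adjusted p = 0.026), and the nuclear receptor gene nr4a3 by -1.31 ± 0.18 (adjusted p = 0.046). The genes fetub, at -0.64 ± 0.10 (adjusted p = 0.076), and msmo1, at -0.02 ± 0.15 (adjusted p = 0.97), were not called between the doses. With median-of-ratios scaling 9 genes were called higher and 2 lower between the doses.

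Set side by side by dose, and sharing the same control libraries, the list medians of OBS20 and OBS30 against control differed between lists in sign and size. The members were those tested in OBS30 against control. Members that missed the filter in OBS20 against control were left out of the OBS20 median only, so the medians of a list can cover different genes. The values by library below cover the same members in all libraries. The antioxidant list had medians of 0.19 at 20 mg/L and 0.42 at 30 mg/L, and the aryl hydrocarbon receptor targets 0.36 at 20 mg/L and 0.44 at 30 mg/L. The AP-1 list had 0.11 at 20 mg/L and 0.51 at 30 mg/L, the cytokine list -0.04 at 20 mg/L and 0.34 at 30 mg/L and the matrix list 0.02 at 20 mg/L and 0.43 at 30 mg/L. The hepatocyte list had -0.54 at 20 mg/L and -0.62 at 30 mg/L, the enterocyte list -0.36 at 20 mg/L and -0.64 at 30 mg/L and the cholesterol list -0.40 at 20 mg/L and -0.30 at 30 mg/L. The lens list had -0.12 at 20 mg/L and -0.40 at 30 mg/L and the proliferation list -0.15 at 20 mg/L and -0.37 at 30 mg/L. The matrix list was at 0.16, 0.23 and -0.30 in OBS20 replicates 1, 2 and 3, the cytokine list at 0.03, 0.18 and -0.16 and the AP-1 list at 0.19, 0.09 and -0.03. The hepatocyte list was at -0.48, -0.32 and -0.70 in the same libraries. Differences between lists were not tested. Over all genes the median was -0.09 at 20 mg/L and 0.02 at 30 mg/L, and OBS20 replicate 3 was lower than the other OBS20 libraries in most of these lists.

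**Figure D5:**
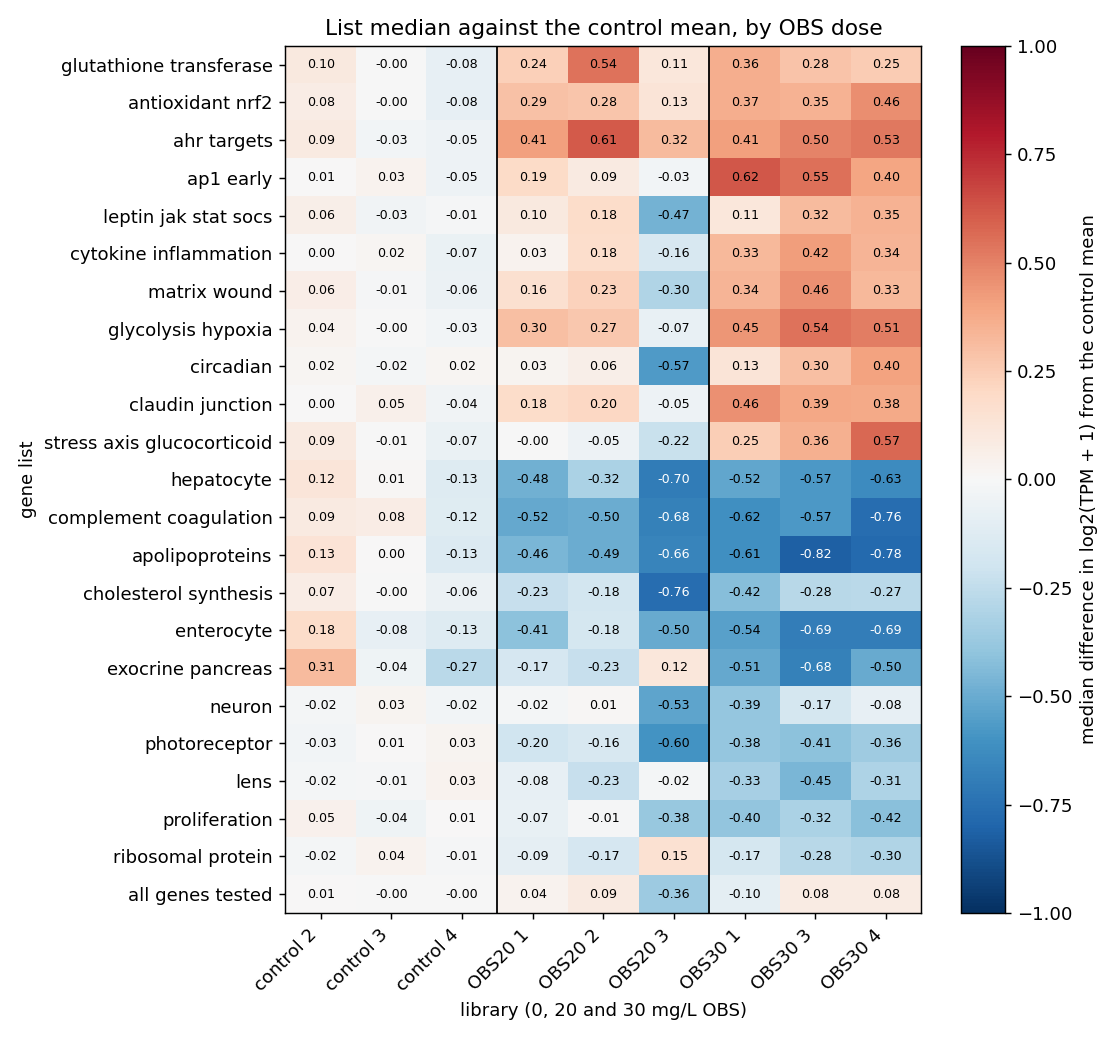
Median difference of each gene list from the control mean, on the log2(TPM + 1) scale, in the control, OBS20 and OBS30 libraries (columns, 0, 20 and 30 mg/L OBS), with the value printed in each cell. The AP-1 list is at 0.62, 0.55 and 0.40 in the OBS30 libraries, the hepatocyte list at -0.52, -0.57 and -0.63, and OBS20 replicate 3 is at -0.36 over all genes.

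Larvae in PFOS were kept at 20 mg/L, so the dose differs from that of OBS30 larvae, and the values are given without a comparison. Both were set against the same control libraries. The change of gstp1 was 2.40 ± 0.06 in OBS30 larvae and 0.55 ± 0.06 in PFOS20 larvae, that of prdx1 was 2.78 ± 0.10 in OBS30 larvae and 1.24 ± 0.12 in PFOS20 larvae, and that of cyp2k18 was 3.40 ± 0.31 in OBS30 larvae and 1.31 ± 0.29 in PFOS20 larvae. For il1b it was 1.93 ± 0.49 in OBS30 larvae and 4.16 ± 0.19 in PFOS20 larvae, for lepb 3.38 ± 0.28 in OBS30 larvae and 4.47 ± 0.18 in PFOS20 larvae, and for hsp70l 2.67 ± 0.09 in OBS30 larvae and 2.27 ± 0.15 in PFOS20 larvae. The change of plekhs1 was -2.56 ± 0.18 in OBS30 larvae and 0.94 ± 0.14 in PFOS20 larvae, and that of stmn4l 1.33 ± 0.07 in OBS30 larvae and -0.70 ± 0.20 in PFOS20 larvae. The median of the neuronal list was -0.21 in OBS30 larvae and -1.17 in PFOS20 larvae, and that of the enterocyte list was -0.64 in OBS30 larvae and -0.10 in PFOS20 larvae. Members that missed the filter in PFOS20 against control were left out of the PFOS20 medians only.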

How the data were processed

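TPM (transcript shares scaled to a fixed total) for 44667 genes and loci were read from the table deposited by the authors, 32520 of them Ensembl genes and 12147 loci assembled in the study. Of the Ensembl IDs, 29201 were in the reference table of gene names. HISAT2, StringTie and RSEM were used with GRCz11 per the submitters' processing notes, and their roles and versions are not given in the sources used here. The authors scaled each library to the same total TPM, so the read depth is unknown and no counting intervals are given. Zebrafish paralogues with like sequences can share reads.

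Columns were matched to libraries by the labels. In the main comparison, a gene or locus that reached 1 TPM in 3 or more of the 6 libraries was tested with limma 3.58.1 in R 4.3.3 on log2(TPM + 1), with a mean-variance trend, two-sided, with Benjamini-Hochberg adjustment over all of them, and called at an adjusted p below 0.05. A fold change on the log2(TPM + 1) scale understates the change of low genes. A gene near 0 TPM in one group passed the filter only through the group where it was higher. Its place above the filter in that group adds no evidence. OBS30 against OBS20 was fitted the same way on its own 6 libraries, and the changes of OBS20 and PFOS20 larvae against control likewise. Library shares were compared by exact permutation. The 59 gene lists (2451 different genes tested) got no test. Where a list count has no share beside it, the shares to set it against are 7.31% higher and 5.43% lower over all genes. With a filter on a mean of 5 TPM, 1695 were called higher and 1293 lower of 14957 tested, which are larger shares. A list share a little above that of all genes is therefore no result about the list. The members and lists were chosen with earlier results of these data known. Genes named in the text were, first, the 15 highest and 15 lowest changes among called genes with an assigned symbol whose libraries did not overlap between the groups. Up to 4 called members per list and direction were added, whether or not their libraries overlapped. All of these averaged 5 TPM or more in the group where they were higher. A panel was named whether called or not, and any other named gene is said to be chosen after its values were seen. Between the doses the panel could be named, and the 8 highest and 8 lowest called changes, again only among genes without overlap. Alternatives were a pseudocount of 0.1, other filters, scaling by quantiles or by median of ratios, the replicate number as a block, fits of all 12 libraries or of the 11 other than OBS20 replicate 3, and leaving out each library in turn. The fits were also run on simulated data with known changes, and the outcome is not given or relied on here. No sequences or genome positions were used. A few genes are not reported here.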

Additional observations from a re-analysis of the deposited data

Results flagged for a closer look

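The change in OBS30 larvae differed from that in OBS20 larvae in a direct limma test of OBS30 against OBS20 libraries for 8 genes of the panel of genes named whether called or not. The differences, OBS30 minus OBS20 on the log2(TPM + 1) scale, were 3.61 for lepb, 1.67 for mmp9, 2.23 for mmp13a, 1.53 for socs3a, 1.85 for hsp70l, 0.77 for prdx1 and 0.81 for fthl27, and -1.76 for prss59.1. Each of these differences had an adjusted p below the threshold in that test. For socs3a the OBS20 libraries also lay below the control libraries, so its difference is not only a rise in OBS30 larvae. Over all genes tested there, 0.406% were called higher and 0.102% lower. In that comparison 0 genes were called without OBS20 replicate 2, OBS30 replicate 3 or OBS30 replicate 4. With median-of-ratios scaling 9 genes were called higher and 2 lower.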

How the results depend on the processing

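Against 2093 higher and 1555 lower genes in OBS30 against control larvae, leaving out 1 library gave 931 to 1947 higher and 618 to 1219 lower. A pseudocount of 0.1, other filters, other scalings and the fits of 12 or 11 libraries gave 1486 to 2372 higher and 1160 to 2071 lower. In OBS30 against OBS20 larvae, with 115 higher and 29 lower, leaving out 1 library gave 0 to 152 higher and 0 to 43 lower. There, no filter gave 42 higher and 11 lower, median-of-ratios scaling 9 and 2, and the fit of all 12 libraries 360 and 147, while a filter on a mean of 5 TPM gave 44 lower and quantile normalisation 48 lower. Median-of-ratios scaling without OBS20 replicate 3, chosen after seeing the data, gave 59 higher and 8 lower. The causes were not tested.

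The labels give OBS30 and control libraries the shared replicate numbers 3 and 4. Deviations from the group means of same-numbered libraries correlated at 0.011 and -0.025 across genes, and those of other-numbered libraries at -0.032 to 0.043. With 2 same-numbered pairs, these values cannot show whether the numbers pair the samples. With the replicate block 0 genes were called higher and 0 lower against control, a fit with few residual degrees of freedom, in which 6728 genes had an unadjusted p below 0.05 in limma, against 8090 without the block. Between the doses the block gave 131 higher and 26 lower.

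Of the 335 named genes, 0 of those called in the main comparison changed sign under the alternatives. Sign changes of named genes not called there were not counted. Calls were lost for 2 to 47 of the named genes under other pseudocounts, filters, scalings and fits. They were lost for 38 to 91 with 1 library left out and for 317 with the replicate block. Depth is unknown, so its limit on genes near 1 TPM could not be given.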

Other observations

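Of 6 tested hatching gland genes 3 rose and 0 fell. The disulfide isomerase family gene agr1 had 151, 161 and 157 TPM in OBS30 larvae, against 77.6, 72.4 and 82.9 TPM in control larvae, and rose by 1.00 ± 0.07 (adjusted p = 8.4e-04). The gene npsn, of the astacin protease family, rose by 0.76 ± 0.10 (adjusted p = 0.006). The name of the list does not show which cells made these transcripts, and whether npsn came from the hatching gland or from other cells was not tested. Of 39 thyroid hormone and retinoid genes 5 rose, 10 fell and 24 were not called. The 5 were 3 without any control library or OBS30 replicates 3 or 4 and in the fit of all 12 libraries, and the 10 were 6 without control replicates 3 or 4. The carotenoid-cleaving enzyme gene bco1, which makes retinal from provitamin A, had 17.7, 13.4 and 14.7 TPM in OBS30 larvae, against 35.8, 34.1 and 32.1 TPM in control larvae, and fell by 1.11 ± 0.12 (adjusted p = 0.0032). The plasma retinol carrier gene rbp4 had 1718, 1545 and 1653 TPM in OBS30 larvae, against 1260.2, 1268 and 1249 TPM in control larvae, and rose by 0.38 ± 0.05 (adjusted p = 0.0073). Neither gene overlapped between the groups. The call of rbp4 was lost with median-of-ratios scaling, at an adjusted p of up to 0.087. Of 34 pigment genes 5 fell, 1 rose and 28 were not called. The 5 were 3 without any control library or OBS30 replicates 3 or 4 and in the fit of all 12 libraries and 8 after quantile normalisation, and the 1 was 0 without control replicates 3 or 4 or OBS30 replicates 3 or 4. The gene pnp4a, a purine enzyme gene that marks iridophores, had 4.17, 4.91 and 4.53 TPM in OBS30 larvae, against 12.6, 11.6 and 11.6 TPM in control larvae, and fell by 1.22 ± 0.10 (adjusted p = 0.0015). Of 48 collagen genes 8 rose, 1 fell and 39 were not called, with 2 to 5 higher when 1 library was left out, 3 higher in the fit of all 12 libraries and 3 lower without OBS30 replicate 1. The gene col12a1a rose by 0.67 ± 0.10 (adjusted p = 0.0093). Of 6 tested oestrogen and vitellogenin genes 2 fell, or 1 when any 1 library other than control replicate 4 was left out, among them the gene of the sex hormone carrier shbg, which had 6.07, 5.80 and 7.29 TPM in OBS30 larvae, against 22.3, 19.7 and 22.2 TPM in control larvae, and fell by 1.60 ± 0.11 (adjusted p = 8.5e-04).

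Of 53 tested proteasome genes 3 rose and 2 fell, 5.66% and 3.77% of them, against 7.31% and 5.43% of all genes. The 3 were 1 without control replicates 3 or 4 or OBS30 replicates 3 or 4, and the 2 were 0 to 1 when 1 library was left out, 0 with no filter and 0 in the fit of all 12 libraries. The polyubiquitin gene ubb of that list had 628, 585 and 582 TPM in OBS30 larvae, against 286, 299 and 298 TPM in control larvae, and rose by 1.02 ± 0.05 (adjusted p = 5.1e-04), with all OBS30 libraries above all control libraries. Among 31 citrate cycle genes 4 rose (12.9%) and 1 fell (3.23%), against 7.31% and 5.43% of all genes. The 4 were 1 to 2 without control replicates 3 or 4 or OBS30 replicates 3 or 4, and the 1 was 0 without control replicate 3 and 2 under both other scalings. Among 22 tRNA synthetase genes 2 rose, or 9.09%, near the share of all genes, and 0 fell. The 2 were 0 without control replicates 3 or 4 or any OBS30 library. Of 35 neurotransmitter genes 3 rose and 3 fell, 8.57% each, near the shares of all genes. The 3 that fell were 7 after quantile normalisation, 6 with median-of-ratios scaling and 1 in the fit of all 12 libraries. They were 1 without control replicate 2 and 0 without control replicate 3. The serotonin transporter gene slc6a4a had 15.7, 17.4 and 15.4 TPM in OBS30 larvae, against 10.7, 10.1 and 10.3 TPM in control larvae, and rose by 0.59 ± 0.09 (adjusted p = 0.01). The GABA transporter gene slc6a1b had 50.5, 55.2 and 62.1 TPM in OBS30 larvae, against 78.7, 82.7 and 84.8 TPM in control larvae, and fell by 0.55 ± 0.09 (adjusted p = 0.013). Neither transporter overlapped between the groups. The call of slc6a4a was lost in the fit of all 12 libraries, at an adjusted p of up to 0.12. The call of slc6a1b was lost without control replicate 3, in the fit of all 12 libraries or in the fit of 11 libraries, at an adjusted p of up to 0.2. Of 51 genes of the endocrine hormone list 9 rose and 3 fell, with 5 higher without OBS30 replicate 1, 3 higher with a filter on a mean of 5 TPM, and 0 to 1 lower without any control library or OBS30 replicates 3 or 4. Of 12 vitamin B12 genes 1 rose and 1 fell, 8.33% each, near the shares of all genes. The 1 that fell was 0 when any 1 library other than OBS30 replicate 1 was left out.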
